A study of Saccharomyces cerevisiae with 8 samples.

Results

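The 10 genes described here serve thiamine (vitamin B1) supply in yeast. They are the genes for synthesis (THI4, THI5, THI20 and THI6), for activation to the cofactor (THI80), for uptake (THI7 and PHO3) and for regulation (THI2, THI3 and PDC2). They were chosen by systematic name from 6225 names on the array. All 10 were among the 5650 genes bright enough to be tested. All samples were of S288C, the reference laboratory strain of budding yeast, in batch culture in a minimal medium. The labels do not say whether that medium held thiamine. RNA of exponentially growing cells sampled at 16, 17, 19, 20, 21, 22, 23 and 24 h was labelled with Cy5, with 1 array for each time. RNA of cells of the same strain aged 64 h was labelled with Cy3 on each of the 8 arrays and served as the common reference. The labels name no mutation and no added agent in either group, and do not say whether the samples came from separate cultures. The p-values therefore cover array-to-array scatter alone, and that scatter may be technical.

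Thiamine diphosphate is the cofactor of pyruvate decarboxylase, transketolase and several other enzymes of carbon metabolism. Yeast builds thiamine by joining a thiazole to a pyrimidine, or takes it up from the medium. Thiamine in the medium is known to turn the synthesis and uptake genes down, and the regulators Thi2, Thi3 and Pdc2 turn them on when thiamine is scarce.

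Each probe was present as 2 spots, and each member had 1 probe. The spots of all 10 members were well above background in both colours on all 8 arrays and none was saturated. Across the arrays, 84.1% to 91.6% of the 12512 gene spots were well above background in Cy5 and 89.5% to 91.1% in Cy3. The dyes were never swapped, so each mean ratio holds any dye bias of its probe, and precision is limited by how few arrays there are. The ratios are relative to the RNA on the array, so RNA per cell was not measured. As markers of the state of the cells, HXT2, HXT3 and MIG2, genes of growth on glucose, had mean log2 ratios of 3.93 to 5.90. The file recorded for 20 h had the lowest HXT3 and MIG2, at 0.34 and 2.14. The other arrays gave 2.04 to 5.58 and 2.88 to 4.94, while HXT2 was at 5.49 in the 20 h file. HXT3 was already falling on other arrays, from 5.58 at 16 h to 2.04 at 23 h. The recorded time of the 20 h file is in question, as described below. HXT3 was saturated in Cy5 on 3 arrays. MLS1, PCK1, ADH2 and HSP30, genes of cells without glucose, had -7.28 to -6.11. In this second set Cy3 was saturated on 6 to 8 arrays for all but MLS1.

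All thiamine genes but THI80 were lower in growing cells than in the 64 h cells, and THI80 was higher. In limma's test of the mean log2 ratio against 0, with p-values adjusted over all genes tested, 9 members were lower, 1 was higher and 0 failed the threshold of 0.05. The same test called 82.9% of all genes tested, 42.6% of them lower and 40.3% higher, so a call alone is common on these arrays. The members' median log2 ratio was -0.85 and that of all genes tested was -0.017. Of the members, 4 (THI4, THI5, PHO3 and THI7) were at least 2-fold lower, as were 10.2% of all genes tested. At least 2-fold higher were 0 members and 4.6% of all genes tested. The members past 2-fold changed with the processing. With each array centred on its median, THI7 stood at -0.96 and THI2 at -1.06. With the scanner software's ratio, THI2 stood at -1.09 and THI80 at 1.23. THI4, THI5 and PHO3 stayed at least 2-fold lower in both. The test leaves out the spread of 64 h cells, of which there was 1 RNA.

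**Figure D1:**
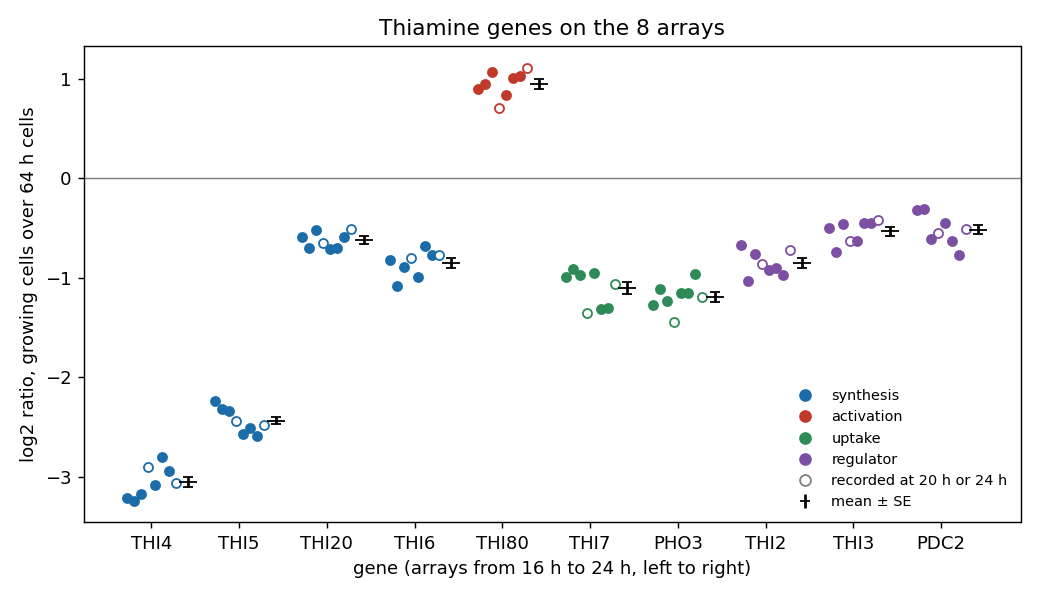
Log2 ratio (vertical axis, growing cells over 64 h cells) of each thiamine gene on each of the 8 arrays, placed from 16 h to 24 h from left to right within a gene. Colours give the role, open points the arrays recorded at 20 h and 24 h, and black marks the mean ± SE of the fit. THI4 and THI5 sit below -2.2 on every array, THI80 above 0.7, and the other 7 between -1.45 and -0.31.

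The first steps of the pathway had the lowest ratios. THI4 (YGR144W) encodes the enzyme that makes the thiazole ring from NAD and glycine, giving up a sulfur atom of its own. Its log2 ratio was -3.24 at the lowest, -3.07 at the median and -2.80 at the highest of the 8 arrays. Relative to the RNA on the array, THI4 mRNA was 8.30-fold lower in growing cells on average, at -3.05 ± 0.048 (SE, n = 8; limma adjusted p = 4.0e-11). Of all genes tested, 1.45% had a lower mean ratio. In the separate channels, the lowest Cy3 level was 11.92 and the highest Cy5 level 9.37 on the log2 intensity scale. The ranges of the channels thus did not overlap, and the share of all genes tested without overlap was not counted.

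THI5 (YFL058W) makes the pyrimidine ring, consuming pyridoxal phosphate, the active form of vitamin B6. Its ratios lay between -2.59 and -2.24, with a median of -2.46. The mean was -2.44 ± 0.037, which is 5.42-fold lower in growing cells (limma adjusted p = 3.2e-11). Every array gave THI5 a higher ratio than THI4, by 0.29 to 0.97. THI5 has near-identical copies elsewhere in the genome, and a probe may read several of them, so its value is uncertain as that of a single gene.

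The later steps differed much less. THI20 (YOL055C) encodes a kinase that phosphorylates the pyrimidine, and THI6 (YPL214C) an enzyme that joins both rings. The ratios of THI20 ran from -0.71 to -0.51 with a median of -0.63, and those of THI6 from -1.08 to -0.68 with a median of -0.81. THI20 was 1.54-fold lower (mean -0.62 ± 0.040; limma adjusted p = 4.0e-07). THI6 was 1.81-fold lower (mean -0.85 ± 0.046; limma adjusted p = 1.4e-07). All values of both genes lay below 0 and above all values of THI4 and THI5.

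THI80 (YOR143C) encodes thiamine pyrophosphokinase, which turns thiamine into thiamine diphosphate whether the vitamin was made or taken up. It was the member with the opposite sign. Its ratios were 0.90, 0.95, 1.07, 0.71, 0.84, 1.003, 1.02 and 1.11 on the arrays recorded at 16, 17, 19, 20, 21, 22, 23 and 24 h, with a median of 0.97. The lowest came from the 20 h array and the highest from the 24 h array, and all lay above 0. The mean was 0.95 ± 0.049, which is 1.93-fold higher in growing cells (limma adjusted p = 1.1e-07), and 94.5% of all genes tested had a lower mean ratio. The mean was 1.23 with the scanner software's own ratio and 0.82 with each array centred on its median.

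Both uptake genes were lower in growing cells. THI7 (YLR237W) encodes the thiamine transporter of the plasma membrane, and PHO3 (YBR092C) a periplasmic acid phosphatase that frees thiamine from its phosphates outside the cell. The ratios of THI7 ran from -1.36 to -0.91 with a median of -1.03, and those of PHO3 from -1.45 to -0.96 with a median of -1.18. The lowest value of each came from the array recorded at 20 h. THI7 was 2.15-fold lower (mean -1.11 ± 0.059; limma adjusted p = 1.3e-07) and PHO3 2.29-fold lower (mean -1.19 ± 0.051; limma adjusted p = 3.1e-08).

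All 3 regulator genes were lower as well. THI2 (YBR240C) encodes a zinc finger activator of the thiamine genes, THI3 (YDL080C) a regulatory protein related to pyruvate decarboxylase that senses thiamine diphosphate, and PDC2 (YDR081C) an activator of both thiamine and pyruvate decarboxylase genes. The ratios of THI2 ran from -1.03 to -0.68 with a median of -0.88. Those of THI3 ran from -0.75 to -0.42 with a median of -0.48, and those of PDC2 from -0.77 to -0.31 with a median of -0.53. The mean ratios were -0.86 ± 0.050 for THI2, -0.54 ± 0.044 for THI3 and -0.52 ± 0.046 for PDC2 (limma adjusted p = 2.2e-07, 2.3e-06 and 4.1e-06). All ratios of these genes were below 0. For PDC2 the channel levels overlapped between arrays, with Cy5 at 11.55 to 12.20 and Cy3 at 12.14 to 12.51, although the ratio was below 0 within each array.

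The ratios of THI3 differed between the 2 slides. The arrays recorded at 17, 20 and 21 h lay on slide 2 and the other 5 on slide 1, each slide scanned in its own session. THI3 had a mean log2 ratio of -0.46 on slide 1 and -0.67 on slide 2, and the values of the slides did not overlap. It was lower in growing cells on either slide alone (limma adjusted p = 2.6e-05 and 0.014). The slide difference of THI3 in a fit with time was -0.20 ± 0.062 and did not pass (limma adjusted p = 0.090). THI80 stood at 1.02 on slide 1 and 0.83 on slide 2, and THI6 at -0.79 and -0.96. For the other 9 members the slides' ranges overlapped, and all were called in the same direction on each slide alone. The share of all genes tested whose slides did not overlap was not counted, so the split of THI3 is descriptive.

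**Figure D2:**
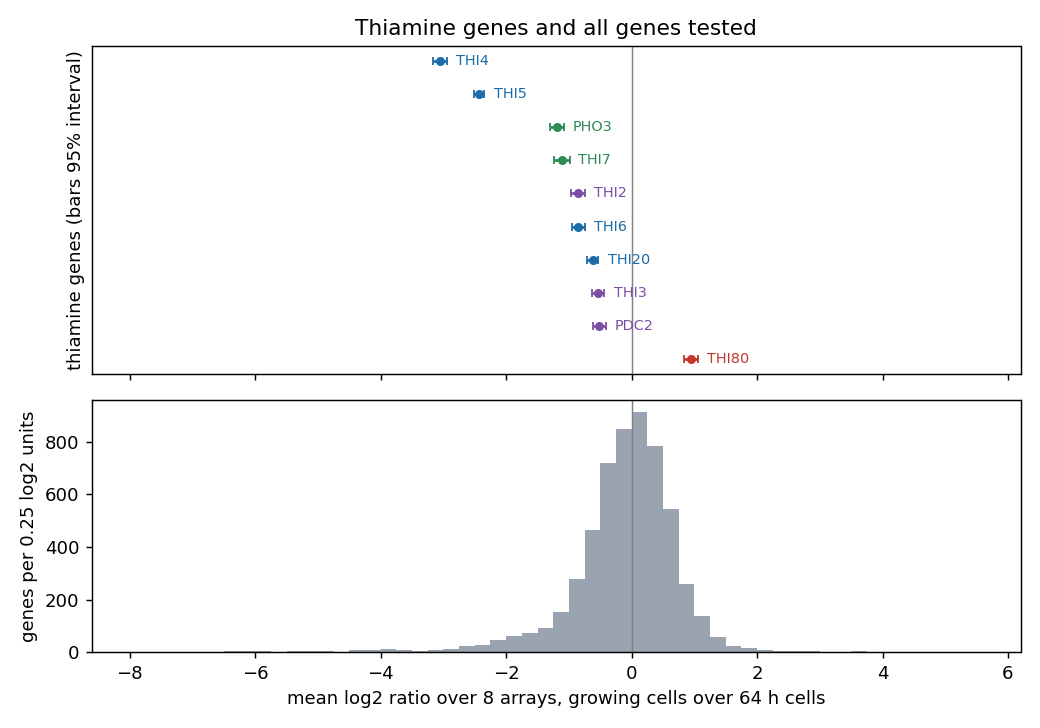
Top, mean log2 ratio of each thiamine gene over the 8 arrays with its 95% interval. Bottom, number of genes tested per 0.25 log2 units of the same measure. Most genes lie near 0, THI4 and THI5 lie in the thin left tail, and THI80 lies on the right.

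The order of the members' ratios was partly resolved in the main processing. It came from the mean ratios on the same 8 arrays that were then tested, so the p-values of neighbours in it are descriptive. Neighbours in that order were compared over the 8 arrays by an exact two-sided sign-flip test. This made 9 pairs, and 3 pairs with genes outside the set were added, giving 12 tests for the Benjamini-Hochberg adjustment. THI5 lay 0.62 ± 0.26 (SD) above THI4 and PHO3 lay 1.24 ± 0.22 above THI5 (exact p = 0.0078 each, the smallest that 8 arrays allow; adjusted p = 0.019). PHO3 and THI7 were not told apart (difference 0.086 ± 0.22; exact p = 0.30, adjusted p = 0.40). THI7 lay below THI2 by 0.25 ± 0.21 on 7 of 8 arrays (exact p = 0.023, adjusted p = 0.035). THI2 and THI6 were not told apart either (0.0047 ± 0.14; exact p = 0.90, adjusted p = 0.98). THI20 lay above THI6 on 7 of 8 arrays (exact p = 0.016, adjusted p = 0.031). THI3 lay above THI20 by 0.087 ± 0.087 on 7 of 8 (exact p = 0.023, adjusted p = 0.035). THI3 and PDC2 were not told apart (exact p = 0.84, adjusted p = 0.98), and THI80 lay 1.47 ± 0.23 above PDC2 on all 8 arrays (exact p = 0.0078, adjusted p = 0.019). These differences hold any difference in dye bias between the probes, and some changed with the processing. With each array centred on its median, THI7 stood at -0.96 and THI2 at -1.06, the reverse order. With the scanner software's ratio they stood at -1.10 and -1.09. THI6 stood at -0.80 in both, so THI2 lay below THI6 there.

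The channel levels show where the spread between arrays lay. The Cy3 channel held the same 64 h RNA on each array, and its SD over the 8 arrays had a median of 0.093 log2 units over the members. In Cy5 the median SD was 0.17. The Cy5 SD was the larger in 8 of 10 members, THI20 and THI6 being the exceptions, against 80.4% of all genes tested. The members were thus close to the other genes in this measure. The median SD of the log2 ratio was 0.13 for the members and 0.16 for all genes tested.

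**Figure D3:**
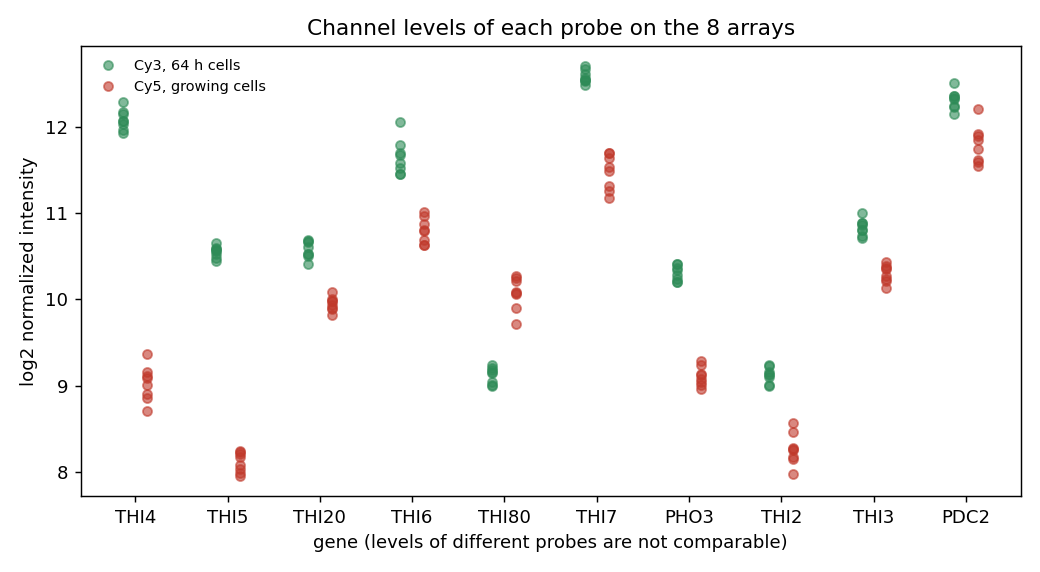
Log2 normalized intensity (vertical axis) of each thiamine gene's probe on the 8 arrays, with Cy3 (64 h cells) in green and Cy5 (growing cells) in red. Cy3 lies above Cy5 on all arrays except for THI80, where it lies below, and the ranges overlap for PDC2 alone. The share of all genes tested without overlap was not counted.

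The second question was whether the thiamine genes changed between 16 h and 24 h. The recorded times of 2 arrays matter here. The scanner software's log2 ratios were centred per gene within each slide and set against the authors' deposited table, which was centred per gene as well. The correlations are therefore of centred values and not of plain ratios. Across genes, the 20 h scanner file had a correlation of -0.49 with the 20 h column of that table and of 0.97 with its 24 h column. For the 24 h scanner file the correlations were -0.39 with the 24 h column and 0.93 with the 20 h column. For the remaining 6 files the best match was the column of their own time, at 0.63 to 0.98. The growth marker HXT3 stood at 4.97 in the 24 h file, between 5.19 at 19 h and 4.50 at 21 h. Its 0.34 in the 20 h file lay below the 2.04 at 23 h. With the 20 h and 24 h files exchanged, HXT3 thus fell at every step, while MIG2 and HXT2 did not. Which times are right was not tested. The slopes of the members are therefore given in 3 fits: all 8 arrays at their recorded times, the 6 arrays whose time is not in question, and all 8 with the 20 h and 24 h files exchanged.

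At the recorded times, limma called 0 of the 10 members with a slope, and 0% of all genes tested. An unadjusted p under 0.05 was found for 2 members and for 385 of the 5650 genes tested. On the 6 arrays limma also called 0 members, 4 having an unadjusted p under 0.05, against 1419 of the 5650 genes tested. There it called 8.37% of all genes tested, 5.2% upward and 3.17% downward. The exchanged fit called 2 members, THI4 rising and THI7 falling, against 19.1% of all genes tested, with 8.58% falling. A fit to the authors' deposited table called 3 members, THI4 and THI6 rising and PDC2 falling, against 34.4% of its genes, 15.9% rising and 18.5% falling. The 20 h and 24 h columns of that table each matched the scanner file of the other time. Its fit therefore places the arrays as the exchanged fit does and is not separate evidence. The members' median slope was 0.011, 0.0022 and -0.0084 log2 units per h in the first 3 fits. The members called, at 0 to 3 of 10, thus stood near the share of all genes tested in each fit.

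THI4 gave log2 ratios of -3.21, -3.24 and -3.18 at 16, 17 and 19 h and of -3.08, -2.80 and -2.95 at 21, 22 and 23 h. The later values all lay above the earlier ones. The file recorded for 20 h gave -2.91 and that for 24 h -3.06. With the files exchanged THI4 rose by 0.049 ± 0.014 log2 units per h (limma adjusted p = 0.038). As recorded the slope was 0.038 ± 0.018 (adjusted p = 0.71) and on the 6 arrays 0.053 ± 0.018 (adjusted p = 0.11, and 0.053 with the slide as a block). A fit to the authors' deposited table gave 0.066 ± 0.012 (adjusted p = 0.0063), from the same arrays in the exchanged order.

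THI7 gave -0.997, -0.91 and -0.97 at 16, 17 and 19 h and -0.95, -1.31 and -1.30 at 21, 22 and 23 h. The values at 22 and 23 h were the low ones, and the 21 h array lay with the early times. With the files exchanged THI7 fell by 0.054 ± 0.016 log2 units per h (limma adjusted p = 0.042). The slope was -0.033 ± 0.022 as recorded (adjusted p = 0.76) and -0.049 ± 0.021 on the 6 arrays (adjusted p = 0.18), and in a fit to the authors' deposited table -0.056 ± 0.020 (adjusted p = 0.061). In the exchanged fit, both calls held without the 21 h array, THI7 alone passed without the 16 h array, and neither gene passed without any 1 of the other 6 arrays. Within slide 1 the exchanged fit gave 0.053 ± 0.018 for THI4 and -0.052 ± 0.018 for THI7, neither of which passed (adjusted p = 0.062 each). On that slide THI5 and PDC2 passed instead, at -0.050 ± 0.015 and -0.056 ± 0.017 log2 units per h (limma adjusted p = 0.044 and 0.040). With each array centred on its median, THI4 alone passed in the exchanged fit.

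**Figure D4:**
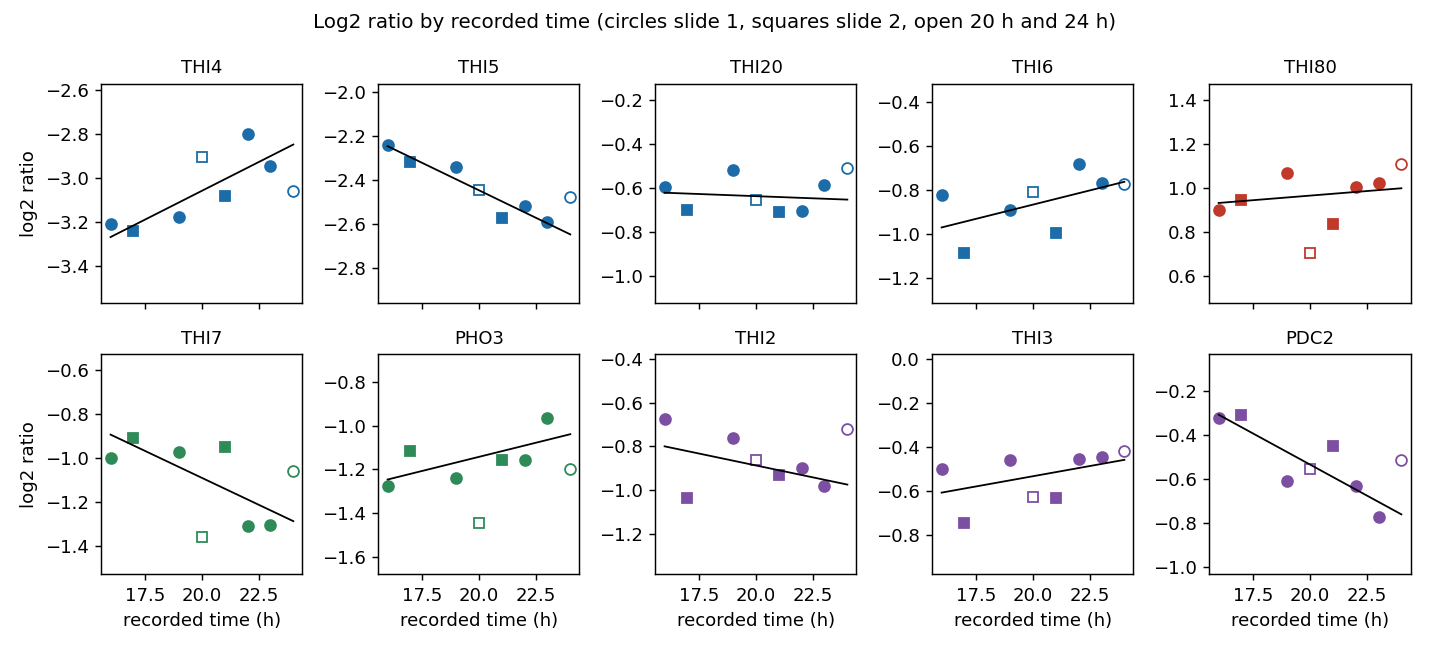
Log2 ratio (vertical axis, each panel spanning 1 log2 unit) of each thiamine gene against the recorded time in h. Circles are arrays of slide 1, squares of slide 2, open points the files recorded at 20 h and 24 h, and the line is the fit to the other 6 arrays. The line points up for THI4 and down for THI5, THI7 and PDC2, and 0 of the 10 lines passed the test.

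Of the members that failed the test in all 3 fits, PDC2 and THI5 came closest to passing on the 6 arrays. PDC2 gave -0.32, -0.31 and -0.61 at 16, 17 and 19 h and -0.45, -0.63 and -0.77 at 21, 22 and 23 h. The lowest value was that at 23 h and the early and late values overlapped. Its slope was -0.040 ± 0.018 as recorded (adjusted p = 0.71), -0.057 ± 0.019 on the 6 arrays (limma adjusted p = 0.098) and -0.043 ± 0.016 with the files exchanged (adjusted p = 0.091). With the slide as a block it passed in both, at adjusted p = 0.036 and 0.017, and in a fit to the authors' deposited table its slope was -0.052 ± 0.010 (adjusted p = 0.0078).

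THI5 gave -2.24, -2.32 and -2.34 at 16, 17 and 19 h and -2.57, -2.52 and -2.59 at 21, 22 and 23 h. The later values all lay below the earlier ones, the reverse of THI4. Its slope was -0.039 ± 0.014 as recorded (adjusted p = 0.71), -0.050 ± 0.016 on the 6 arrays (limma adjusted p = 0.086, and 0.025 with the slide as a block) and -0.036 ± 0.014 with the files exchanged (adjusted p = 0.10). In a fit to the authors' deposited table it was -0.026 ± 0.018 (adjusted p = 0.30).

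The other 6 members had smaller slopes on the 6 arrays. For these THI6 and PHO3 gave 0.026 per h each, THI3 0.019, THI80 0.0084, THI20 -0.0039 and THI2 -0.022, with adjusted p-values of 0.41 to 0.92. The 95% intervals of all 6 held 0. That of THI80 ran from -0.032 to 0.049 per h and that of THI20 from -0.044 to 0.036. As recorded the slopes were 0.025 for THI6, 0.017 for PHO3, 0.022 for THI3, 0.017 for THI80, 0.0058 for THI20 and -0.0047 for THI2. With the files exchanged they were 0.022, -0.0014, 0.0066, -0.012, -0.0046 and -0.015 in the same order. The sign of PHO3, THI80 and THI20 thus turned between fits, in none of which they passed. THI6 rose by 0.033 per h in a fit to the authors' deposited table (limma adjusted p = 0.037). A squared time term was called for 0 members in any of the 3 fits, in which it was called for 0%, 0% and 0.655% of all genes tested, 0.496% upward and 0.159% downward. For this term 0 members had an unadjusted p under 0.05, against 395, 260 and 851 of the 5650 genes tested in the same order of fits.

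**Figure D5:**
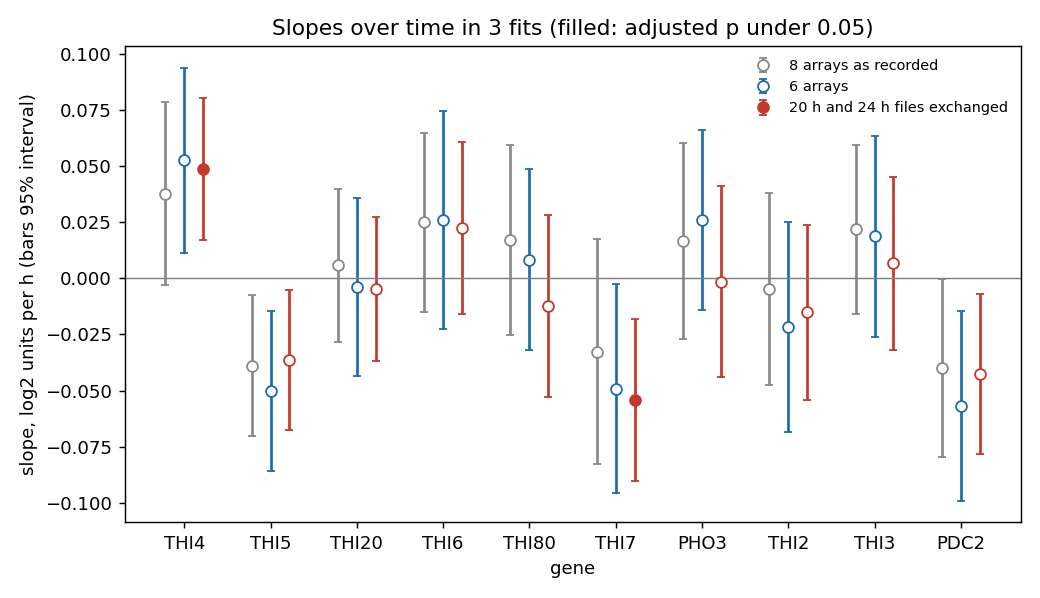
Slope of the log2 ratio in log2 units per h (vertical axis) with its 95% interval for each thiamine gene in 3 fits: the 8 arrays as recorded (grey), the 6 arrays not in doubt (blue) and the 8 arrays with the 20 h and 24 h files exchanged (red). Filled points passed at an adjusted p under 0.05, which in these fits were THI4 and THI7 with the files exchanged.

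Other thiamine genes were mostly lower in growing cells too. Of 11 listed, 10 were lower, 0 were higher and 1 did not pass, against 42.6% lower and 40.3% higher of all genes tested. The median log2 ratio of the 11 was -0.91. THI12, a copy of THI5, was lowest at -2.44 ± 0.045 (limma adjusted p = 1.4e-10). TPC1, which carries thiamine diphosphate into mitochondria, was the one that did not pass at -0.045 ± 0.037 (adjusted p = 0.28); it was 0.065 with the scanner software's ratio and called lower at -0.18 with each array centred on its median. In the 3 slope fits 0 of the 11 were called.

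The copies of THI5 depended on how dim spots were treated. THI5 and THI12 were not told apart, differing by -0.00069 ± 0.075 (SD; exact p = 0.99, adjusted p = 0.99). The probes of THI11 and THI13, named here after their values were seen, were well above background in Cy5 on 5 and 0 of the 8 arrays. THI11 stood at -1.82 and at -3.26 with the scanner software's ratio. Growing cells held at least 1.71-fold less THI13 mRNA by the bound used for dim channels, which carries no test. The mean log2 ratio of THI13, -1.23, was the value tested (limma adjusted p = 6.8e-09), and its probe may read the other copies. That ratio became -3.30 with the scanner's ratio, and the authors' deposited table lists THI13 at 0 in all 8 columns. THI5 and THI12 moved less, to -2.82 and -2.87. The order of the 4 copies therefore turned with this choice, while each was lower in growing cells under both.

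THI5 lies next to the vitamin B6 gene SNZ3 in the annotation, and THI12 next to SNZ2. SNZ3 had the lowest mean ratio of the 6 vitamin B6 pair genes, at -2.86 ± 0.033, and lay below THI5 on all 8 arrays, by 0.42 ± 0.12 (SD; exact p = 0.0078, adjusted p = 0.019). SNO2 was highest of the 6 at -0.81, with Cy5 well above background on 2 arrays. All 6 were lower in growing cells, as were 42.6% of all genes tested, and the median of the 6 was -2.49. SNZ1 and SNO1 fell on the 6 arrays, SNZ1 at -0.22 ± 0.017 and SNO1 at -0.25 ± 0.020 log2 units per h (limma adjusted p = 0.00061 each). SNZ3 had a slope of -0.0034 ± 0.016 (adjusted p = 0.92), and the difference between these slopes was not tested.

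PHO3 lies next to PHO5, an acid phosphatase gene that answers to phosphate. PHO5 had a mean log2 ratio of 0.0100 ± 0.050 and did not pass (limma adjusted p = 0.86). It was 0.12 with the scanner software's ratio and -0.14 with each array centred on its median, and passed under neither. It lay above PHO3 on all 8 arrays, by 1.20 ± 0.17 (SD; exact p = 0.0078, adjusted p = 0.019). Of the 3 other acid phosphatase genes listed, PHO11 and PHO12 were higher in growing cells, as were 40.3% of all genes tested. PHO11 stood at 0.44 ± 0.11 and PHO12 at 0.73 ± 0.12. Neither passed on slide 2 alone, at 0.35 ± 0.19 and 0.65 ± 0.24 over 3 arrays (limma adjusted p = 0.20 and 0.096). In the file recorded for 20 h they stood at -0.20 and -0.050, and PHO11 also lay below 0 at 23 h, at -0.055. Both fell on the 6 arrays, with slopes of -0.15 ± 0.017 and -0.15 ± 0.016 log2 units per h (limma adjusted p = 0.0014 and 0.0011), and 2 of 3 fell with the files exchanged. PHO11 and PHO12 are near-identical, so their probes may read each other's mRNA.

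Genes for enzymes that use thiamine diphosphate did not share one direction. Of 10, 8 were lower and 2 higher in growing cells, against 42.6% and 40.3% of all genes tested. The median log2 ratio of the 10 was -0.59. With each array centred on its median in place of loess, 4 were lower and 5 higher. With saturated spots left out, 6 were lower and 2 higher, since PDC1 (8 arrays saturated in Cy5, 7 in Cy3) and PDA1 (7 and 2) then had no value in the fit. PDC1 is named here after its values were seen. TKL2, a minor transketolase, was lowest at -5.42 ± 0.071 and TKL1, the major one, highest at 0.48 ± 0.035 (limma adjusted p = 1.2e-11 and 1.1e-06), with TKL1 saturated in Cy5 on 7 arrays. TKL1 stood at 0.58 with saturated spots left out, at 0.35 with the scanner software's ratio and at 1.24 with each array centred on its median. KGD1, of 2-oxoglutarate dehydrogenase, stood at -2.54 ± 0.083. PDA1, of pyruvate dehydrogenase, stood at -0.45 ± 0.051 but at 0.37 with each array centred on its median, Cy5 being saturated as above. With the files exchanged KGD1 and PDA1 rose by 0.077 and 0.054 log2 units per h (limma adjusted p = 0.021 and 0.020); on the 6 arrays 0 of the 10 were called.

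The genes whose ratios lay closest to those of THI4 and THI5 were found by the root mean square difference of the log2 ratios over the 8 arrays, among 5649 genes each. For THI4 these were CTA1, the peroxisomal catalase, at a difference of 0.18, AIM33 at 0.24 and SNZ3 at 0.25. For THI5 they were its copy THI12 at 0.070, RCH1 at 0.10 and the chaperone-like gene BTN2 at 0.11. These are distances between ratios on the same arrays and carry no test.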

How the data were processed

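Per the file headers, the deposited intensity values were made with Agilent Feature Extraction 10.5.1.1 as the median of the pixels of each spot and of its local background, per channel. The deposited log10 ratio of red over green was made by the same software, per the file headers, after background and dye correction. The submitters' processing notes name that software too, and the headers name sacCer2 as the build of the design. The authors' deposited table is on a log2 scale. From its values it was centred on 0 per gene, in the direction Cy5 over Cy3, with column medians of -0.012 to 0.015. Its normalization is unknown here.

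Median signals were corrected with normexp (offset 50), since the files held no mean signals, and normalized by loess within each array with control spots at weight 0 (limma 3.58.1, R 4.3.3). Outlier spots and controls were left out and spots of a probe averaged; for 29 genes with several probes the brightest was used. Testing required a probe with all spots well above background, in Cy5 or in Cy3, on 4 or more arrays, which 5650 genes met. Of 6225 names, 5737 matched a locus tag of assembly R64, used for symbols and neighbours only. The log2 ratios were fitted against centred time (lmFit, eBayes). P-values were adjusted by Benjamini-Hochberg across the genes tested, and errors are SE unless named otherwise. Intervals are 95% intervals of the fit. Channel levels are log2 values after loess and Aquantile normalization. A bound for a channel never well above background sets the bright channel against the lowest Cy5 level well above background, or the probe's own if higher, and is open to dye bias. The fits were tested on simulated data.

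The members and lists were chosen with earlier results of these data known. Named genes are all members, the highest and lowest mean ratio of each other list with its genes called for slope on the 6 arrays or with the files exchanged, and the 3 nearest genes of the 2 members with the largest ratios. Alternatives were the scanner's ratio, median centring, offset 0, no filter, saturated spots left out, the mean of probes, slides, the disputed times, the authors' table and each array left out.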

Additional observations from a re-analysis of the deposited data

Results flagged for a closer look

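Among the 40 thiamine, vitamin B6, cofactor enzyme and acid phosphatase genes examined, the log2 ratio of PHO5 on the array recorded at 17 h stood apart from the other arrays. It was 0.35 there and between -0.14 and 0.085 on the other 7. The gap was larger than Dixon's 95% critical value for 8 samples. Chance gives such a gap in about 1 in 20 genes, and 1 of the 40 genes had one, which is not above that share. None of the 10 thiamine members (0 of 10) had one.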

How the results depend on the processing

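The 9 lower and 1 higher calls of the thiamine genes by mean ratio held under all the alternatives run, and all 180 single values kept their direction and their call. Slide 2 alone, with 3 arrays, called 1499 genes lower and 1247 higher among all genes, 1 cofactor enzyme higher and 0 acid phosphatases higher. Median centring gave 4 cofactor enzymes lower and 5 higher. For slope, the arrays as recorded called 0 genes. Calls of all genes were 473 on the 6 arrays, 1079 with the files exchanged, 1187 and 1707 when slide blocks were added to these fits, and 1930 in the authors' table. Thiamine members called were 2 with the files exchanged, 2 on the 6 arrays with the slide block, 3 exchanged with the block and 3 in the authors' table. In the same order the other thiamine genes gave 0, 1, 1 and 2, the cofactor enzymes 2, 2, 3 and 6, the vitamin B6 genes 2, 2, 2 and 3, and the acid phosphatases 2 throughout; the last 2 lists gave 2 each on the 6 arrays as well. The 2 calls with the files exchanged became 1 with median centring and 0 to 2 when single arrays were left out, alternatives chosen after seeing the data. Slide 1 alone also gave 2, but these were THI5 and PDC2 in place of THI4 and THI7. The cause of these changes was not tested. No paired analysis was possible because the arrays form 1 group.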
